A study of Mus musculus with 2 samples.

Results

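Radial glia are the neural stem cells of the developing forebrain. The 10 genes described here encode the filaments, carriers, transporters, junction proteins and surface molecules by which these cells are recognised: Vim, Nes, Fabp7, Slc1a3, Prom1, Hopx, Tnc, Ptprz1, Gja1 and Gfap. They were taken by name from the gene tables, where all 10 were matched by 1 identifier each, among 42462 mouse genes with a name and 69691 features in all. The material was B6NCrl mouse forebrain taken at embryonic day 12.5 and measured by total RNA sequencing in 1 group of 2 libraries. Replicate 1 came from a pool of 120 embryos and replicate 2 from a pool of 68, both of mixed sex and both started from 10.0 ng of RNA. There was no second genotype, treatment or age, so no comparison between conditions exists, and each difference below is between genes, between transcripts or between the 2 pools. The forebrain is a mixture of cells, so for every gene fewer expressing cells and less RNA per cell cannot be told apart.

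Radial glial cell bodies line the ventricle, where they divide, and each sends a long process to the outer surface of the brain along which young neurons migrate. Early in neurogenesis they carry the intermediate filament proteins vimentin and nestin. Glutamate transporters, connexin hemichannels and a brain lipid carrier mark them as glia, while the filament protein GFAP is typical in mice of the astrocytes that form later. A further class of radial glia with cell bodies away from the ventricle, called outer radial glia, is abundant in primates and is recognised by genes that include Hopx, Tnc and Ptprz1.

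The libraries held 33711030 and 34578499 expected counts, which are reads as the deposited tables assign them to genes. The 10 genes together took 0.228% of all TPM, the transcripts-per-million level that corrects counts for transcript length, in replicate 1 and 0.212% in replicate 2. Spike-in RNA took 9.19% and 8.25%. All 4 telencephalic factors listed were detected, among them Lhx2 at 161 and 185 TPM, and none of 4 hindbrain and spinal cord Hox genes was. Markers of other cells were present: the summed level of 11 genes of mesenchyme and meninges was 745 TPM in replicate 1 and 901 in replicate 2, each of the 11 being higher in replicate 2, led by the collagen gene Col3a1 at 307 and 339 TPM. Erythroid genes summed to 6344 and 8625 TPM, led by the embryonic globin gene Hbb-y at 5001 and 6716. Neuronal genes summed to 1655 and 1535 TPM, led by the tubulin gene Tubb3 at 737 and 683, with 6 of 8 higher in replicate 1. Microglial genes summed to 62.9 and 70.8 TPM, led by the complement gene C1qb at 13.1 and 15.5.

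Of the 10 genes, 8 reached 1 TPM in both replicates, the level at which a gene was counted as detected. Of all 21474 protein-coding genes, 60.0% did so. The median level of the 10 genes was 61.5 TPM, against 4.60 over all protein-coding genes and 21.6 over the detected ones. Vim and Fabp7 lay near 900 TPM, 5 genes lay between Nes at 126 and Ptprz1 at 53.7 TPM, Tnc lay near 9 TPM, and Hopx and Gfap were below 1 TPM. The spread over the 10 genes therefore ran from the 79th most abundant protein-coding gene, Vim, to Gfap at position 16105.

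**Figure D1:**
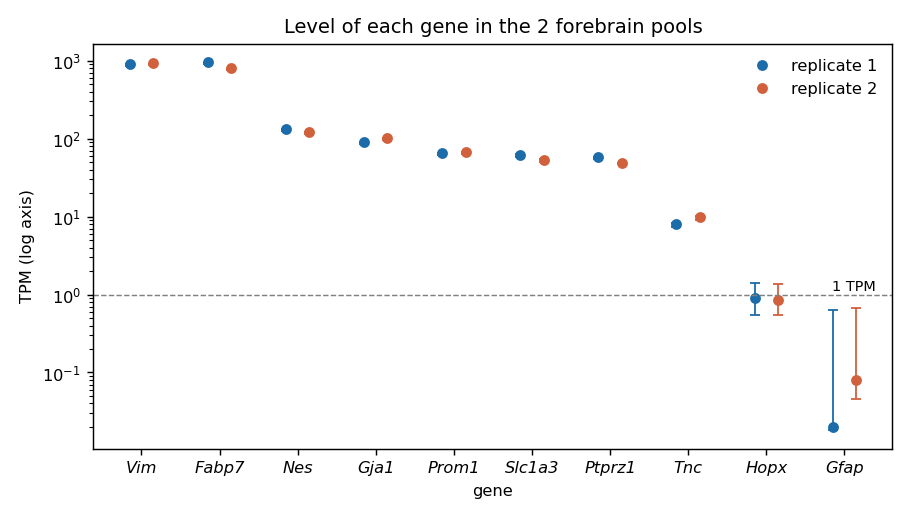
Level of each of the 10 genes in TPM, on a log axis, in replicate 1 (blue) and replicate 2 (orange), with the deposited interval of each value as a bar and a dashed line at 1 TPM. Vim and Fabp7 stand at the top, Hopx lies just under the line at 0.89 and 0.84 TPM, and Gfap lies at 0.02 and 0.08 TPM with wide intervals.

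Among the structural genes, Vim (ENSMUSG00000026728, chromosome 2, 13573927 to 13582826, plus strand, GRCm38) encodes vimentin, an intermediate filament protein that also occurs in mesenchyme and vessels. Its level was 906 TPM in replicate 1 and 922 in replicate 2, a mean of 914 ± 11.1 (SD, n = 2), from 24734 and 25954 expected counts. The deposited intervals were 862 to 900 and 879 to 915 TPM, and they overlapped. These intervals belong to the tables' posterior mean, so a TPM value can lie just outside its own interval. Their confidence level is not stated in the sources used here, and they cover counting and read assignment only.

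Nes (ENSMUSG00000004891, chromosome 3, 87971078 to 87980451, plus strand) encodes nestin, a filament protein typical of neural stem cells that pairs with vimentin. It measured 132 and 121 TPM, a mean of 126 ± 7.89 (SD, n = 2). By deposited TPM, Vim was 7.23-fold higher than Nes per length, by 6.86-fold in replicate 1 and 7.63-fold in replicate 2. Nes is expressed in endothelium too, as background, and the 10 endothelial markers listed summed to 157 and 162 TPM, led by Egfl7 at 39.5 and 45.4 TPM.

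Gfap (ENSMUSG00000020932, chromosome 11, 102887336 to 102900912, minus strand) encodes the filament protein of astrocytes. It had 1 expected count in replicate 1 and 4 in replicate 2, or 0.02 and 0.08 TPM. A count of 3, taken as the floor, corresponded to 0.0584 and 0.0572 TPM, so replicate 1 was below the floor and replicate 2 just above it. By the tables' posterior mean it was at 0.24 and 0.29 TPM, so neither its level nor a difference between the pools is fixed at these counts. Of that posterior mean, 76.7% and 62.0% lay on Gfap-203, a noncoding transcript of 356 bases with 0 expected counts in both pools. Of 7 astrocyte markers 5 were detected, and the summed level of the 7, 194 and 164 TPM, came mostly from Sox9, at 153 and 126 TPM, which radial glia also express. Aqp4, a water channel of mature astrocytes, was at 0.28 and 0.21 TPM, and Aldh1l1 at 1.65 and 1.46 TPM. Aldoc was at 26.0 and 22.4 TPM, Slc1a2 at 9.88 and 10.7, Gjb6 at 2.65 and 2.9, and S100b at 0.43 and 0.48.

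Fabp7 (ENSMUSG00000019874, chromosome 10, 57784881 to 57788450, plus strand) encodes the brain lipid-binding protein, a cytosolic carrier of fatty acids. It measured 952 TPM in replicate 1 and 800 in replicate 2, a mean of 876 ± 108 (SD, n = 2), from 13552 and 11849 counts. The intervals of 910 to 941 and 764 to 792 TPM did not overlap, and replicate 1 was 1.19-fold higher. Fabp7 had the largest SD in TPM of the 10 genes and was the only one of the 10 whose place relative to Vim differed between the pools: it was above Vim in replicate 1 and below it in replicate 2.

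Slc1a3 (ENSMUSG00000005360, chromosome 15, 8634124 to 8710764, minus strand) encodes GLAST, a glutamate transporter of the plasma membrane. Its level was 61.7 TPM in replicate 1 and 52.7 in replicate 2, a mean of 57.2 ± 6.37 (SD, n = 2). Gja1 (ENSMUSG00000050953, chromosome 10, 56377330 to 56402513, plus strand) encodes connexin 43, which forms gap junctions between radial glia and also forms hemichannels. It measured 91.4 and 102 TPM, a mean of 96.9 ± 7.87 (SD, n = 2), so its higher pool was replicate 2 whereas that of Slc1a3 was replicate 1.

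Prom1 (ENSMUSG00000029086, chromosome 5, 43993620 to 44102032, minus strand) encodes prominin 1, also called CD133, a cholesterol-binding protein of apical membrane protrusions. It was at 64.9 and 66.9 TPM, a mean of 65.9 ± 1.40 (SD, n = 2), with overlapping intervals of 61.4 to 65.1 and 63.4 to 67.1 TPM. Ptprz1 (ENSMUSG00000068748, chromosome 6, 22875502 to 23052916, plus strand) encodes a receptor tyrosine phosphatase that carries chondroitin sulfate. It was at 58.2 and 49.2 TPM, a mean of 53.7 ± 6.34 (SD, n = 2), and its intervals did not overlap. Prom1 thus differed little between the pools and Ptprz1 was 1.18-fold higher in replicate 1.

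Tnc (ENSMUSG00000028364, chromosome 4, 63959785 to 64047015, minus strand) encodes tenascin C, a large glycoprotein of the extracellular matrix. It measured 7.99 TPM in replicate 1 and 9.76 in replicate 2, a mean of 8.88 ± 1.25 (SD, n = 2), and was higher in replicate 2. Hopx (ENSMUSG00000059325, chromosome 5, 77086988 to 77115121, minus strand) encodes a small homeodomain protein that does not bind DNA. It had 18.46 and 18.03 expected counts, or 0.89 and 0.84 TPM, with intervals of 0.554 to 1.39 and 0.549 to 1.36 that reach past the detection level in both pools.

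In the order of the mean levels, 6 of the 9 neighbouring pairs differed beyond their spread: on the log2(TPM + 1) scale, both pools showed the pair in the same order and by more than either gene differed between the pools. Fabp7 was 6.92-fold above Nes, Nes 1.31-fold above Gja1, Gja1 1.47-fold above Prom1, Ptprz1 6.05-fold above Tnc and Tnc 10.3-fold above Hopx. Hopx also stood above Gfap, but the deposited intervals of these genes overlapped in both pools, and Gfap rested on 1 and 4 counts. The pairs that did not differ beyond their spread were Vim and Fabp7, Prom1 and Slc1a3, and Slc1a3 and Ptprz1.

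Between the pools, the deposited intervals did not overlap for 6 of the 8 detected genes, against 15.2% of the 12880 detected protein-coding genes. Among the 7050 of those with a mean of 1000 expected counts or more, a depth that all 8 detected genes reached, the share was 20.1%. Nes, Fabp7, Slc1a3 and Ptprz1 were higher in replicate 1 (4 of 8, against 8.01% of all detected protein-coding genes). Tnc and Gja1 were higher in replicate 2 (2 of 8, against 7.15%). The median size of the difference was 0.19 on the log2 scale for the 8 genes and 0.09 for all detected protein-coding genes, and with 1 library on each side the difference has no replicate check. These are 2 pools of one group and the differences are not effects of a condition.

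The largest differences, replicate 2 minus replicate 1 on the log2(TPM + 1) scale, were 0.26 for Tnc, -0.25 for Fabp7, -0.24 for Ptprz1 and -0.22 for Slc1a3. Gja1 stood at 0.16, Nes at -0.13, Prom1 at 0.04 and Vim at 0.02. The summed levels of several marker lists were also higher in replicate 2, as Tnc and Gja1 were, among them mesenchyme and meninges as given above. The 4 telencephalic factors were higher there too, at 337 and 406 TPM in sum, with all 4 higher in replicate 2. The 9 mural markers, all detected, summed to 99.8 and 128 TPM, with 5 higher in replicate 2 and 4 in replicate 1. The contractile genes Acta2, at 21.2 and 39.6 TPM, and Tagln, at 6.47 and 13.1, differed most. Choroid plexus markers, 6 of 7 detected, summed to 103 and 152 TPM, with 5 higher in replicate 2 and 2 in replicate 1, and their leading gene Ttr was at 42.9 and 84.4 TPM. Ependymal markers, 1 of 6 detected, summed to 10.6 and 15.4 TPM, mostly from Foxj1 at 8.47 and 11.8. Of them 3 were higher in replicate 2 and 1 in replicate 1, with Tmem212 and Ccdc153 at 0 in both pools. Markers of retina and ciliary epithelium, 2 of 7 detected, summed to 11.8 and 15.3 TPM, with 5 higher in replicate 2 and 1 in replicate 1. Their leading gene Dct was higher in replicate 1, at 7.55 and 6.70, Pmel was at 0.71 and 3.61, and Rpe65 was at 0. The neuronal sum given above was higher in replicate 1, as Nes, Fabp7, Slc1a3 and Ptprz1 were. The astrocyte sum was too, with 4 genes higher in replicate 1 and 3 in replicate 2, and without Sox9 it was 40.9 and 38.2 TPM. The part of these cells in the differences was not tested.

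**Figure D2:**
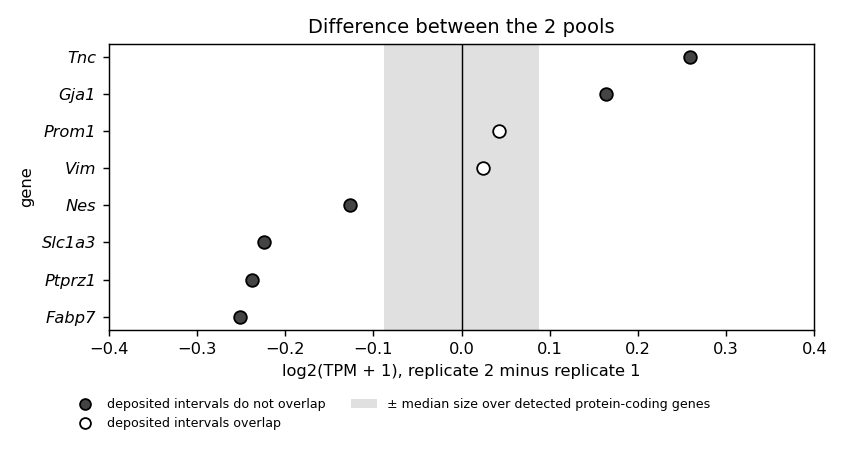
Difference of the 8 detected genes between the pools, replicate 2 minus replicate 1, on the log2(TPM + 1) scale. Filled points are genes whose deposited intervals do not overlap, open points are Prom1 and Vim, and the grey band marks the median size of 0.09 over detected protein-coding genes.

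Each gene was set within its family. Of 14 intermediate filament genes 8 were detected, and Vim led them with 57.1% of their summed TPM in replicate 1 and 59.7% in replicate 2. Lmnb1, which encodes the nuclear lamin B1, followed at 218 and 191 TPM, and Ina, the neuronal filament protein internexin, at 175 and 167. By mean deposited TPM, Nes was the 4th and Gfap the last of the 14. The last place is not fixed, since the Gfap intervals of 0.0181 to 0.626 and 0.046 to 0.663 TPM reach the levels of Sync, Nefh and Des. The neurofilament genes Nefl and Nefm were at 40.6 and 34.4 TPM and at 32.7 and 29.7 TPM. Prph, a filament gene of peripheral neurons, was detected in 1 pool only, at 1.13 and 0.46 TPM.

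Of the 14 genes for fatty acid, retinol and retinoic acid carriers, 6 were detected and 4 were at 0 in both pools. Fabp7 held 53.4% and 47.7% of their summed TPM. Fabp5, a carrier found in many tissues, was at 486 and 512 TPM, and Fabp7 was 1.75-fold above it, by 1.96-fold in replicate 1 and 1.56-fold in replicate 2. Crabp2, which carries retinoic acid, was at 202 and 203 TPM.

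All but 1 of the 7 Slc1 transporter genes were detected, and Slc1a3 held 49.7% and 46.3% of their sum. Slc1a2, which encodes the transporter that dominates in adult astrocytes, was at 9.88 and 10.7 TPM, and Slc1a3 was 5.55-fold above it. The neutral amino acid transporter genes Slc1a5 and Slc1a4 lay between them, at 25.2 and 26.5 TPM and at 24.0 and 20.4 TPM. Of 20 connexin genes 7 were detected, and Gja1 led with 48.5% and 47.6% of their sum. Gjc1, encoding connexin 45, was close behind at 74.4 and 84.9 TPM, and the ratio of Gja1 to Gjc1 was 1.23 and 1.21. Gja4, the connexin 37 gene, was the third at 8.70 and 9.29 TPM. Gjb2, the connexin 26 gene, was at 5.53 and 10.3 TPM and differed between the pools more in proportion than Gja1.

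Tnc was the only detected gene of 4 tenascin genes. Tnr, which encodes the tenascin of the later nervous system, was at 1.11 and 0.61 TPM, and it was counted too at a threshold of 0.5 TPM and by the posterior mean. Of 13 genes for tenascin receptors and matrix partners 11 were detected, led by Itgb1, the integrin beta 1 gene, at 105 and 116 TPM, Ncan, encoding neurocan, at 85.9 and 69.5, and Vcan, encoding versican, at 53.4 and 53.5. Prom1 was the 1 detected prominin gene, with Prom2 at 0.21 and 0.33 TPM.

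Ptprz1 was listed with Ptprg, the other receptor of its class, and with secreted ligands and contactin partners of the class. Of these 9 genes 8 were detected. The ligand genes stood above the receptor: Mdk, encoding midkine, was at 686 and 734 TPM and Ptn, encoding pleiotrophin, at 120 and 108 TPM. Mdk was 6.23-fold above Ptn. Ptprg was at 27.3 and 33.1 TPM, and the ratio of Ptprz1 to Ptprg was 2.13 in replicate 1 and 1.49 in replicate 2.

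**Figure D3:**
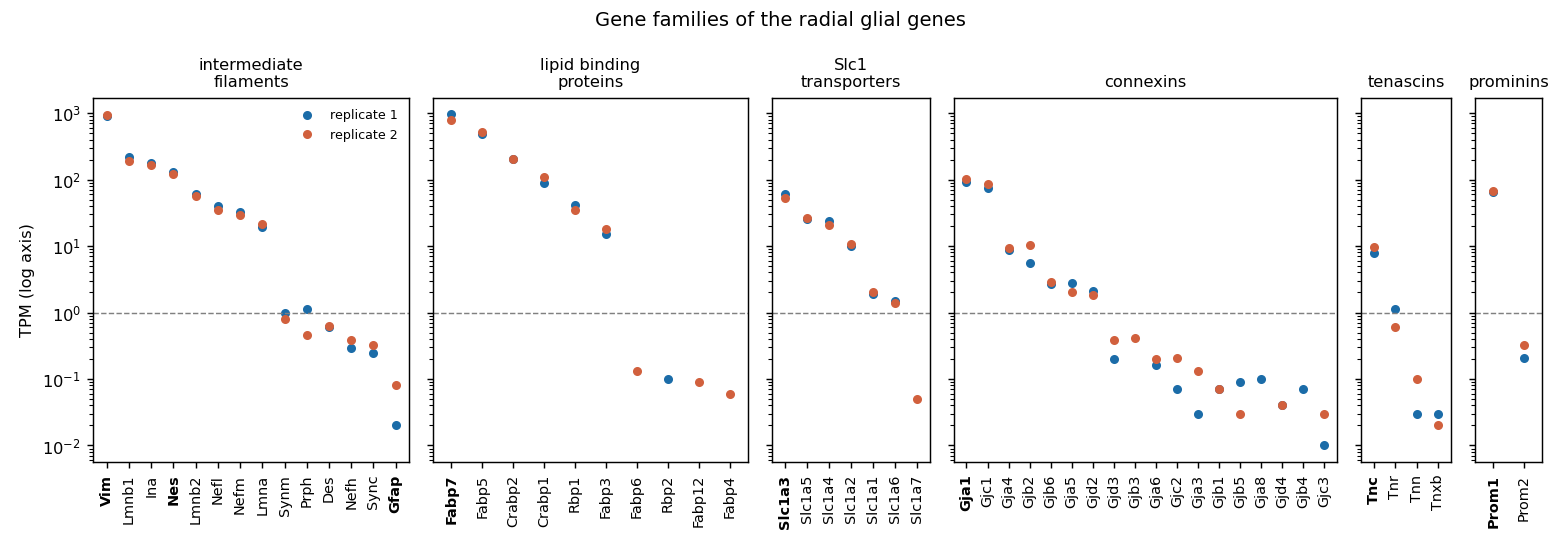
Level in TPM, on a log axis, of every gene of 6 families in replicate 1 (blue) and replicate 2 (orange), the radial glial genes in bold and a dashed line at 1 TPM. A value of 0 has no point, and genes at 0 in both pools are not drawn. By mean TPM, Vim, Fabp7, Slc1a3, Gja1, Tnc and Prom1 stand first in their families. Nes is the 4th and Gfap, on 1 and 4 counts, the last among the filament genes.

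The transcript tables split the TPM of each gene among its transcripts, in percent. Vim has 6 annotated transcripts, and 3 carried nearly all of it. Vim-203, a transcript of 535 bases annotated as a retained intron, held 36.5 ± 0.509% of TPM (SD, n = 2). The coding transcripts Vim-206, of 1777 bases, and Vim-201, of 2193 bases, held 32.5 ± 0.615% and 30.3 ± 0.983%. By expected counts the order was the reverse: Vim-201 held 47.0%, Vim-206 40.4% and Vim-203 11.8 ± 0.244% of the gene's counts. TPM divides counts by length, so a short transcript holds a larger share of TPM than of counts.

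A pair of segments is among the stretches that separate these transcripts. Each is printed 5′ to 3′ with the segment in capitals and the neighbouring bases of the transcript in lower case (GRCm38, GENCODE M21 exons, plus strand). The first is a coding exon of 86 bases that Vim-201 contains and Vim-206 lacks, at chr2:13581613-13581698, whose length is not a multiple of 3. The second is the stretch of 52 bases of intron with which Vim-203 begins, at chr2:13579369-13579420. Transcripts with the 86-base exon, Vim-201 and Vim-203 together, held 66.7 ± 0.474% of Vim TPM and Vim-206 the 32.5% given above. Of this, Vim-203 gave 36.5% of TPM on 11.8% of counts. Between the coding transcripts, Vim-201 and Vim-206 held 30.3% and 32.5% of TPM, and 47.0% and 40.4% of counts. Vim-206 also starts 354 bases from the start of the gene, against 25 for Vim-201. Its share is therefore not a measure of skipping of the exon alone.
Vim-201 exon of 86 bases: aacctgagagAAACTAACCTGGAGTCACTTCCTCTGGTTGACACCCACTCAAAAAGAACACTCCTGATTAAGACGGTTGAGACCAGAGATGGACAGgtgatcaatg
Vim-203 first 52 bases: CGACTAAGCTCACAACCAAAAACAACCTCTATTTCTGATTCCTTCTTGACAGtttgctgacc

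**Figure D4:**
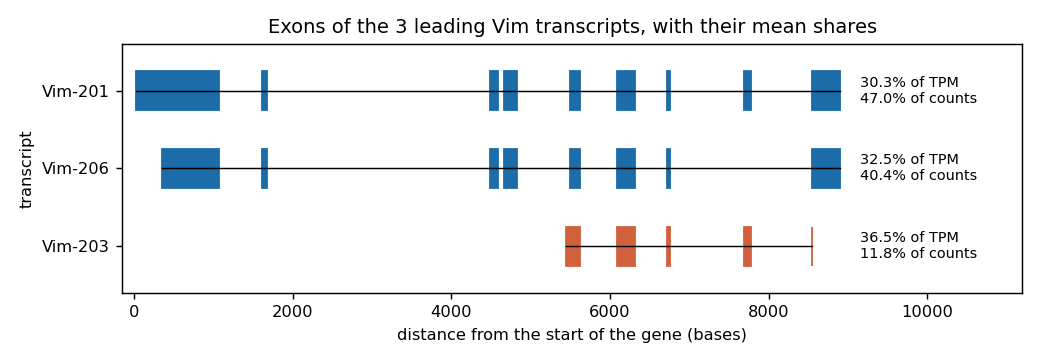
Exons of Vim-201, Vim-206 and Vim-203 as boxes, by distance in bases from the start of the gene, with each transcript's mean share of Vim TPM and of expected counts. Vim-203 covers only the later exons and holds 36.5% of TPM on 11.8% of counts. Vim-206 starts farther downstream than Vim-201 and lacks its 86-base exon.

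The deposited level of Vim rests on these shares, since the gene's length is an average over its transcripts. With the length of Vim-201, the longest coding transcript, the same counts gave 588 ± 3.26 TPM (SD, n = 2), 1.55-fold lower than deposited. With the length of Vim-206, the coding transcript of highest TPM share, they gave 734 ± 4.07. Under both, alternatives chosen after the data were seen, Fabp7 stood above Vim: by 1.35-fold, beyond the spread, with the longest transcripts and by 1.19-fold, within it, with the leading ones. Nes and Gja1 then no longer differed beyond their spread. Vim stood 5.00-fold above Nes with the longest transcripts and 6.23-fold with the leading ones, against 7.23-fold as deposited. The share of Vim in its family also rests on the deposited length.

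RefSeq places the Vim start 359 bases downstream of the first base of Vim-201 and 30 bases downstream of that of Vim-206. The 100 bases before that RefSeq start, at chr2:13574211-13574310 on the plus strand (RefSeq, GRCm38.p6), are printed with matches to TATAAA and CCAAT on either strand in capitals, CCAAT appearing here as its reverse complement. Over 32851 such windows of all genes, 5.56% hold TATAAA, 18.9% CCAAT and 24.7% GGGCGG. A match describes letters only.
Vim upstream: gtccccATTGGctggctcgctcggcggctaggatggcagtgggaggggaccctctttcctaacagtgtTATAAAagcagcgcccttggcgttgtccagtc

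Nes has 2 coding transcripts, which differ in 1 coding segment and in their first base. Nes-201 held 76.2 ± 2.61% of TPM (SD, n = 2) and Nes-203 15.7 ± 2.16%, and the retained intron transcript Nes-202 held 8.10 ± 0.453%. Nes-203 had 2205 and 2555 expected counts, with posterior SDs of 640 and 510 counts. The split between the coding transcripts is thus less certain within each pool than the SD between the pools shows. In the last exon of Nes-201 lies a stretch of 132 bases, or 44 codons, that Nes-203 skips (chr3:87976581-87976712, plus strand). The stretch begins with GT and ends with AG, and the 10 bases before it are repeated at its end, as the sequence shows with the stretch in capitals.
Nes-201 stretch of 132 bases: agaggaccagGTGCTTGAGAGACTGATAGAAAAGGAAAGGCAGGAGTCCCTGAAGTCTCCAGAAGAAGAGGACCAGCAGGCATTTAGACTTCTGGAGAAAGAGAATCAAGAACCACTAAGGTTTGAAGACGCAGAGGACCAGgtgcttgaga

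Fabp7 was carried almost wholly by Fabp7-201, with 98.3% and 98.4% of TPM. Slc1a3-201, the full coding transcript, held 76.4% in replicate 1 and 70.5% in replicate 2, a mean of 73.5 ± 4.16% (SD, n = 2). Its share of counts was 90.2 ± 2.22%. Retained intron transcripts of Slc1a3 held 17.3 ± 1.99% of TPM on 7.26% of counts. No other transcript of Slc1a3 reached 10% in either pool. Ptprz1 and Gja1 have 1 transcript each in the tables, though GENCODE M21 lists 6 and 8, so their isoforms were not resolved here.

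Prom1 was split between Prom1-202, with 51.8 ± 1.81% of TPM (SD, n = 2), and Prom1-207, with 44.6 ± 0.481%. Prom1-202 had 2532 and 2585 expected counts, with posterior SDs of 117 and 135 counts. Prom1-207 had 1989 and 2166, with posterior SDs of 118 and 128. The split is thus less certain within each pool than the SD between the pools shows, and the Prom1 shares by start and by exon rest on it. The tables hold 8 Prom1 transcripts, all annotated as coding, though GENCODE M21 lists 19, so the shares are of these 8 only. By annotated start, 4 lie in the upstream part of the gene and held 55.0 ± 0.771% of TPM. The other 4 are annotated to start farther down, the first of them 7264 bases from the gene's upstream end, and held the rest. The lengths of several Prom1 transcripts differ between the tables and M21, so the exons are described as M21 places them.

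Exons of 69, 24 and 27 bases, all multiples of 3, are in Prom1-202 and absent from Prom1-207 (minus strand, at chr5:44000777-44000845, chr5:44001270-44001293 and chr5:44058626-44058652). The 69- and 24-base exons lie toward the 3′ end of the gene, and transcripts with them held 51.8 ± 1.81% of TPM. Transcripts with the 27-base exon held 54.5 ± 0.735%. The exons are in capitals with 10 neighbouring bases on each side.
Prom1 exon of 69 bases: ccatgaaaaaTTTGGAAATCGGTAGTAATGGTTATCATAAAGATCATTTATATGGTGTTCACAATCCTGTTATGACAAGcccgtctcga
Prom1 exon of 24 bases: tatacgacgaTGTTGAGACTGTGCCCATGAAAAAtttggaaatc
Prom1 exon of 27 bases: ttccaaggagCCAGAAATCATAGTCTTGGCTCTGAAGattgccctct

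RefSeq gives Prom1 a start in each of the 2 regions, and the 100 bases before each are shown with motif matches in capitals (minus strand, chr5:44101737-44101836 for the upstream start and chr5:44094769-44094868 for the downstream one). The upstream window holds GGGCGG and CCAAT, and the downstream window holds none of the 3 motifs searched. The downstream window ends in a run of C and T followed by AG. Both starts are annotated ones, and whether RNA begins at either was not tested.
Prom1 upstream start: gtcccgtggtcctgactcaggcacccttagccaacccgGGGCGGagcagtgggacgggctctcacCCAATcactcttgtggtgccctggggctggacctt
Prom1 downstream start: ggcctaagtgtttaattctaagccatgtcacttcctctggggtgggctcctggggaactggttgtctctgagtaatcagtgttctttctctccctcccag

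Tnc-204 held 59.3% of Tnc TPM in replicate 1 and 70.5% in replicate 2, and Tnc-203 held 22.4% and 29.5%. Tnc-201 held 14.1% in replicate 1 and was listed at 0 in replicate 2, from 153 counts and 0, with a posterior SD of 86.3 counts in replicate 1, so its share is poorly fixed. Tnc-203 contains an exon of 273 bases, or 91 codons, that Tnc-204 and Tnc-201 lack (chr4:63984460-63984732, minus strand). Transcripts that span the exon and lack it held 71.9 ± 2.06% of TPM (SD, n = 2), and Tnc-203 held 26.0 ± 5.03%. Tenascin C is known to vary by such exons, each encoding a fibronectin type III repeat. The exon is in capitals.
Tnc-203 exon of 273 bases: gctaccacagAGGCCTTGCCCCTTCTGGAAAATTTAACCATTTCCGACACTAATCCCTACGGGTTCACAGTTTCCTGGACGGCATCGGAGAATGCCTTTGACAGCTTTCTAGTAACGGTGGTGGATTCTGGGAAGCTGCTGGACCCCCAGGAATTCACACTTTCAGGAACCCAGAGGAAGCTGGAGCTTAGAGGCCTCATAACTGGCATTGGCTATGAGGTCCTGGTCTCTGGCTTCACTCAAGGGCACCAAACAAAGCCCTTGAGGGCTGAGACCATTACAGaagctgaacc

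Tnc-204 is also the 1 transcript of the gene that starts at its upstream end, 26290 bases before the start of the other 3, which together held 35.1 ± 7.88% of TPM (SD, n = 2). The 3 transcripts of Hopx share a coding length of 219 bases and differ in where they start. Hopx-202 held 88.0 ± 0.495% of Hopx TPM (67.0% by the posterior mean) and Hopx-203 the rest. Hopx-201, which starts 19844 bases upstream, was listed at 0 in both pools by maximum likelihood and at 10.4% by the posterior mean. These shares rest on 18.46 and 18.03 counts in all, so a minor share of Hopx-201 was not detectable at this depth.

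The 100 bases before each RefSeq start of Hopx (minus strand) show the difference in base content: the upstream window, at chr5:77115124-77115223, is 54.0% G and C, and the downstream window, at chr5:77095268-77095367, is 79.0%. Neither holds one of the 3 motifs.
Hopx upstream start: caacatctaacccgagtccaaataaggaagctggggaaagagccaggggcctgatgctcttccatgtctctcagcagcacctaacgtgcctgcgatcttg
Hopx downstream start: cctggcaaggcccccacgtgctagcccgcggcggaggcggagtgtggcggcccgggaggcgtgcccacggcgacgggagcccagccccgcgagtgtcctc

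**Figure D5:**
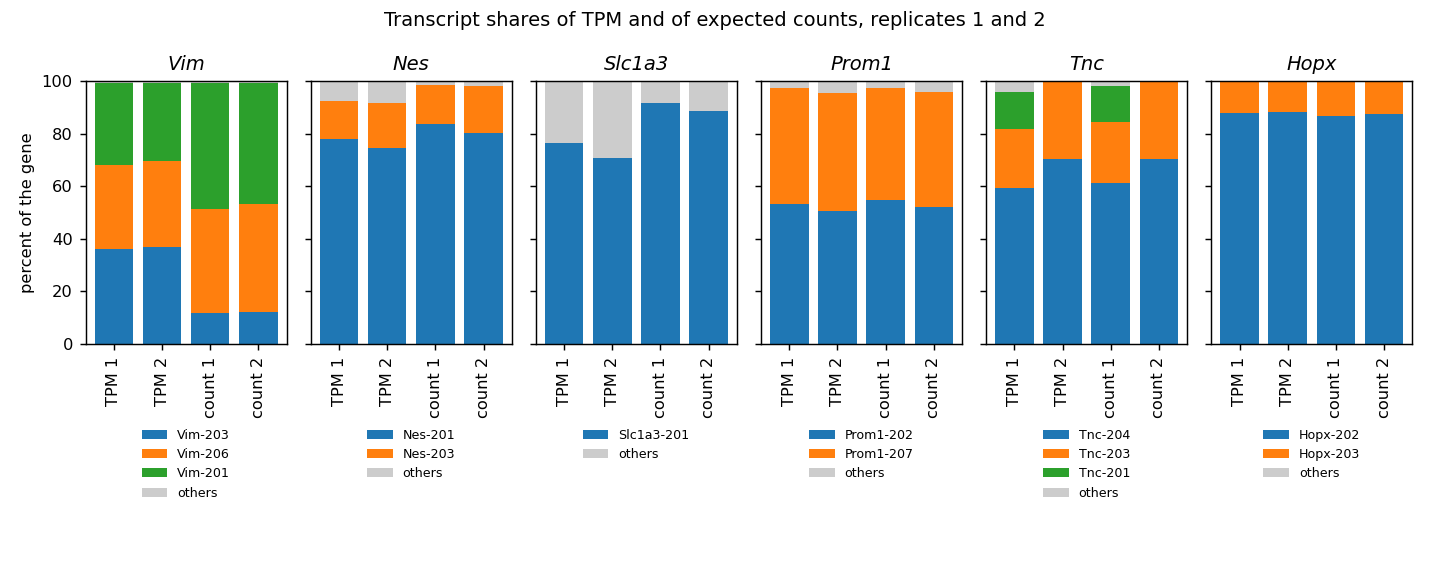
Percent of each gene's TPM and of its expected counts held by its transcripts, in replicates 1 and 2, for 6 genes with several transcripts, transcripts under 10% in both pools being pooled as others. Vim-203 is large by TPM and small by counts, Tnc-201 appears in replicate 1 only, and the Hopx bars rest on 18.46 and 18.03 counts.

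Exons of 3 of the genes overlap another gene on the opposite strand in GENCODE M21. Hopx overlaps Hopxos, at 0.05 and 0.21 TPM, Prom1 overlaps Gm16401, at 3.02 and 3.72 TPM, and Tnc overlaps 8030451A03Rik, at 0.95 and 0.27 TPM. Whether reads were counted by strand is not stated, and without strand the reads of a gene and its opposite partner cannot be told apart. For Prom1 and Tnc the partner was far below the gene itself.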

How the data were processed

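The labels describe 2 libraries of total RNA from pools of mixed-sex embryos, which are biological replicates of one group. By its title the series has been superseded by a newer deposit, not used here. Per the text deposited with the tables, build GRCm38 (mm10) and GENCODE M4 were used. Neither aligner nor quantifier is named in the sources used here.

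The authors' gene and transcript tables give expected counts, estimated numbers of reads that may be fractional. The authors also deposited TPM, which sums over spike-ins as well as genes, and FPKM, scaled by length and library size. The bounds of the deposited intervals and the posterior SD of the counts were taken as signal values from the same deposited tables. The deposited transcript tables give the percent of a gene's TPM that each transcript holds.

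Names, classes, exons and the transcript classes come from GENCODE M21 by identifier without version, which named 42462 of 43346 mouse genes and left 884 unnamed. Promoter windows come from RefSeq GRCm38.p6, which had all 10 genes with 13 start sites. Effective length was the length minus 99 bases. Levels are in deposited TPM and differences in log2(TPM + 1), a scale that understates the change of low genes. The pseudocount was 1 and the floor 3 counts. No molecular identifiers are described in the labels, and reads without them can be copies of 1 molecule, so intervals and floors cover counting error only. With 1 group there was no test and no p-value. The depth of 33711030 and 34578499 expected counts sets the precision. Alternatives were a pseudocount of 0.1, thresholds of 0.5 and 5 TPM, the posterior mean, FPKM, TPM without spike-ins, and scaling of rounded expected counts by edgeR 4.0.16 (TMM) and DESeq2 1.42.0, under R 4.3.3, with a pseudocount of 0.5 on 16772 genes. The scaling script was tested on simulated data. Other scripts ran in Python 3.11.15 with numpy 2.4.6, pandas 2.3.3 and matplotlib 3.10.9.

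The 10 genes and the family, marker and radial glial lists were chosen with earlier results of these data known, and the telencephalic and hindbrain lists after the files were seen. All 10 genes are named with their values. Of each related list the 3 highest genes are named by default and any other detected gene may be. Of the marker lists the rule allows the 3 highest and the markers at 0, and the text gives mainly the leading gene of each, and of transcripts the leading one and any at 10% or more. Genes under 1 TPM named beside a family, the connexin gene Gjb2, and single markers below the leading ones, were chosen after their values were seen.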

Additional observations from a re-analysis of the deposited data

How the results depend on the processing

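The median level of the 10 genes was 61.5 TPM as deposited, 67.4 TPM without spike-ins and 58.9 TPM with the longest coding transcript as the length. With the leading coding transcript it was also 58.9 TPM. Without 1 replicate each it ranged from 59.8 to 63.3 TPM. The detected genes numbered 8 at 5 TPM, by the posterior mean, without spike-ins and in either replicate alone, and 9 at 0.5 TPM, where Hopx was added. Of the 9 neighbouring pairs, 6 differed beyond their spread under 4 alternatives and 5 with the leading coding transcript as the length. The same 6 genes had intervals that did not overlap by FPKM and without spike-ins. No gene changed the sign of its difference between the pools under the 5 scalings tried. The difference of Gfap alone moved beyond the spread, to 1.53 on the log2 scale under TMM and DESeq2 size factors, from 1 and 4 counts. Detected genes moved by over 1.5 times in 4 of 10 lists at 5 TPM, and the detected tenascin genes went from 1 to 2 at 0.5 TPM and by the posterior mean. The posterior mean put Gfap at 0.265 TPM, most of it on the noncoding transcript Gfap-203, against 0.05 as deposited. Depth limits Hopx and Gfap. No paired analysis was possible because there is 1 group.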

Other observations

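Further gene lists that the account above has not described give the setting. Of 16 other genes expressed by radial glia of the early ventricular zone, all 16 were detected, with a median of 77.6 TPM, beside 60.0% of all protein-coding genes. The list was chosen with earlier results of these data known, so its detected share is descriptive only. Dbi, which encodes an acyl-CoA binding protein, was at 797 and 760 TPM, and Hes5, a target of Notch signalling, at 379 and 376 TPM. Sparc, a matrix protein that vessels and mesenchyme also make, was at 280 and 347 TPM. Intervals did not overlap between the pools for 5 of the 16 that were higher in replicate 1, against 8.01% of detected protein-coding genes, and for 3 that were higher in replicate 2, against 7.15%.

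Of 13 genes reported in outer radial glia, 10 were detected, with a median of 4.16 TPM. The list holds Ptprz1, Tnc and Hopx, so it is not independent of the levels above. Ptn was the highest at 120 and 108 TPM, followed by Ptprz1 at 58.2 and 49.2 TPM and Stat3, which encodes a cytokine-activated transcription factor, at 28.0 and 25.3 TPM. Hopx, Fam107a and Lgals3 were below 1 TPM in both pools, Fam107a at 0.50 and 0.36 TPM and Lgals3 at 0.33 and 0.51 TPM.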
